A study of Mus musculus with 13 samples.

Results

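Hearts homozygous for the E3A allele of Cpt1b were set against hearts heterozygous for it, which asks what the loss of the last wild-type copy is accompanied by in the cardiac transcriptome. The comparison took every library whose label gives the genotype E3A/E3A or WT/E3A and does not call it a potential outlier, which is 6 of the 13 libraries. These were E3A/E3A replicates 3, 4 and 5 and WT/E3A replicates 2, 3 and 4, and values are listed below in that order of hearts. WT/WT replicates 2, 3 and 4 entered the same fit, so that 9 libraries gave 1 estimate of the spread, and their values are shown where they help. All mice were male C57BL/6N, 13 weeks old and fed chow, and each library held polyA RNA of 1 heart. E3A/E3A hearts carry 2 mutant copies of Cpt1b, WT/E3A hearts 1 mutant and 1 wild-type copy, and WT/WT hearts none. Both compared groups therefore carry the allele. The labels give no litter, founder line, time of day at collection or part of the heart. Replicate numbers follow the order of deposition and pair no hearts.

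CPT1B is the muscle form of carnitine palmitoyltransferase, an enzyme of the outer mitochondrial membrane that commits long-chain fatty acids to oxidation by joining them to carnitine. Malonyl-CoA, made by acetyl-CoA carboxylase and removed by malonyl-CoA decarboxylase, inhibits it. E3A replaces a glutamate near the amino terminus with alanine, and the enzyme is then inhibited less. The adult heart draws most of its energy from fatty acids, and nuclear receptors such as PPAR alpha keep the genes of this pathway expressed. The heart also has its own circadian clock, in which BMAL1 with CLOCK or NPAS2 activates genes whose PER, CRY and REV-ERB products feed back to repress the activators.

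The 6 libraries held 20.1 to 37.0 M counted reads and 16713 to 17338 genes with at least 1 read. The cardiac label held: all 13 of 13 cardiomyocyte markers were tested, and the ventricular myosin heavy chain gene Myh6 took 4.07 to 4.61% of reads. The 4 libraries that the labels call potential outliers stood apart with 6.59 to 9.49% of reads from Myh6. They include E3A/E3A replicates 1 and 2 and WT/E3A replicate 1, and results with them added back are given at the end. Sample titles carry a prefix of unstated meaning: C3 held E3A/E3A replicates 3 and 5 with WT/E3A replicate 2, and C4 held E3A/E3A replicate 4 with WT/E3A replicates 3 and 4. Differences within each prefix are given beside the pooled ones, as C3 and C4. Of the WT/WT hearts in the fit, replicate 2 was in C3, and replicates 3 and 4 were in C6, which held no other genotype. In whole tissue, fewer cells of a type and less RNA per cell cannot be told apart.

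Cpt1b itself, the mutated gene (chromosome 15, 89416405 to 89425862), had few reads in every heart, 61 to 139. Cpt1b overlaps the annotated gene Gm44502, so its level is uncertain without the settings of the counting. It stood at 3.67, 3.97 and 3.60 CPM (reads scaled to a common library size) in E3A/E3A hearts, against 3.39, 3.28 and 2.63 CPM in WT/E3A hearts. The homozygotes lay just above the heterozygotes, without overlap. The log2 difference was 0.27, with an exact two-sided permutation p = 0.1, the smallest that 20 splits of 3 against 3 hearts can give, and edgeR's quasi-likelihood test gave an adjusted p = 0.731. WT/WT hearts had 3.02, 3.00 and 3.18 CPM. Cpt1a, the liver form, was counted far higher than this muscle form, at 79.0 to 95.2 CPM in the 6 compared hearts. Whether the reads of Cpt1b were fully assigned was not tested, so the direction of its difference is uncertain too. The labels carry no read-level evidence of the allele, so transcript level is no check of genotype here.

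Of 14373 genes tested, 6 differed between E3A/E3A and WT/E3A hearts at an adjusted p under 0.05, which is 0.0417% of the genes (0.0278% higher, 0.0139% lower). Higher in the homozygotes were Npas2 and Arntl, a pair of core clock activators, with Gm13889 and Col5a3, and lower were the endosomal sodium-proton exchanger Slc9a9 and the leukotriene enzyme Alox5. Below, a gene passed where edgeR's quasi-likelihood test on these 9 libraries gave an adjusted p under 0.05, and calls of the alternative tool DESeq2 are named as such. At an unadjusted p under 0.05 there were 993 genes (6.91%), 581 higher (4.04%) and 412 lower (2.87%). The groups did not overlap for 837 genes that were higher (5.82%) and 760 that were lower (5.29%) in E3A/E3A hearts. The median log2 difference of all genes was 0.00, and 50.8% of genes had a value above 0. The number of calls depended on the tool, the block and single hearts. DESeq2 called 38 genes (15 higher, 23 lower), all 6 among them, and limma-voom called 0, with 1061 at an unadjusted p under 0.05. With the title prefix as a block 2 genes were called, Slc9a9 and Nr4a2, and with all 13 libraries 0. Calls numbered 13 without E3A/E3A replicate 5, 9 without WT/WT replicate 2, 3 without WT/E3A replicate 2 or WT/WT replicate 3 and 2 without E3A/E3A replicate 3. Slc9a9 alone was called without E3A/E3A replicate 4, WT/E3A replicate 3, WT/E3A replicate 4 or WT/WT replicate 4, and it passed with each of the 9 hearts left out.

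Slc9a9 (chromosome 9, 94669557 to 95230453) helps set the acidity of endosomes and fell in the homozygotes. It had 0.766, 0.589 and 0.557 CPM in E3A/E3A hearts, against 2.79, 1.99 and 2.80 CPM in WT/E3A hearts, and 3.60, 3.51 and 3.59 CPM in WT/WT hearts. Every homozygote was below every heterozygote, and the 3 genotypes did not overlap in these 9 libraries. With the potential outliers the genotypes did overlap and the call was lost. On the scale of 13 libraries the added homozygotes, replicates 1 and 2, stood at 2.98 and 2.63 CPM, and the added heterozygote, replicate 1, at 0.275 CPM. The log2 difference was then -0.32. The high and low levels of Slc9a9 thus cross the labelled genotypes, and whether each library carries its labelled genotype was not tested. In the 9 libraries the log2 difference was -1.94 (SE 0.21, adjusted p = 0.00275 in edgeR's quasi-likelihood test), with -1.92 within C3 and -1.86 within C4. These levels rest on 13 to 29 reads per E3A/E3A library and 56 to 65 reads per WT/E3A library. The microRNA gene Mir7656 lies inside Slc9a9, and no source used here gives the strand setting of the counting. The other 7 tested exchangers of the family lay between -0.20 and 0.17 on the log2 scale and did not pass.

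Alox5 (chromosome 6, 116410071 to 116461178) encodes arachidonate 5-lipoxygenase, the enzyme that starts leukotriene synthesis. It had 13.8, 14.04 and 14.9 CPM in E3A/E3A hearts, against 19.4, 21.8 and 23.3 CPM in WT/E3A hearts, and 24.7, 28.6 and 26.7 CPM in WT/WT hearts. The order again followed the number of mutant copies with no overlap between genotypes. With the title prefix as a block Alox5 did not pass (edgeR quasi-likelihood adjusted p = 0.0783). In the fit without the block its log2 difference of -0.60 (SE 0.08) passed edgeR's quasi-likelihood test at an adjusted p = 0.0228. The difference was -0.43 within C3 and -0.68 within C4. In that fit E3A/E3A against WT/WT gave -0.90 (edgeR quasi-likelihood adjusted p = 0.000115) and WT/E3A against WT/WT gave -0.30 (adjusted p = 0.539). These 2 contrasts share hearts with the one above and are not independent of it. WT/WT replicates 3 and 4 were in C6, which held no other genotype, so prefix and genotype cannot be fully separated in them. Of 17 tested genes of eicosanoid metabolism, 9 were higher and 8 lower, Alox5 was the 1 that passed, and the median was 0.01. Ephx2, the soluble epoxide hydrolase, had 225.5, 231.7 and 217.4 CPM in E3A/E3A hearts, against 237.4, 272.0 and 266.8 CPM in WT/E3A hearts. The groups did not overlap, and the difference of -0.20 did not pass (edgeR quasi-likelihood adjusted p = 0.456).

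Col5a3, which encodes a chain of type V collagen (chromosome 9, 20770050 to 20815117), had 88.9, 83.2 and 91.8 CPM in E3A/E3A hearts, against 69.9, 71.2 and 69.4 CPM in WT/E3A hearts. The WT/WT hearts, at 74.8, 77.4 and 80.9 CPM, lay between them. Col5a3 rose, with a log2 difference of 0.33 (SE 0.05) and an adjusted p = 0.0434 in edgeR's quasi-likelihood test, and by 0.37 within C3 and 0.24 within C4. The call was lost with the title prefix as a block (edgeR quasi-likelihood adjusted p = 0.195), and with the potential outliers the difference turned to -0.16. Gm13889, a protein-coding gene of unassigned function in the annotation used here (chromosome 2, 93955810 to 93957100), had 9.64, 9.55 and 8.27 CPM in E3A/E3A hearts, against 5.88, 5.76 and 5.13 CPM in WT/E3A hearts. It rose by 0.72 (SE 0.11, adjusted p = 0.0391 in edgeR's quasi-likelihood test), and WT/WT hearts stood between at 6.57, 7.64 and 7.54 CPM. Its difference did not pass with the prefix block (edgeR quasi-likelihood adjusted p = 0.11) and was 0.16 with the potential outliers. In the matrix list 25 of 29 tested extracellular matrix genes were higher, 0 passed, and the median was 0.06, with 0.11 within C3 and -0.04 within C4. With the potential outliers the direction turned, with 6 higher, 23 lower and a median of -0.14. Adamts4, a protease of matrix proteoglycans, had 6.34, 5.27 and 5.53 CPM in E3A/E3A hearts, against 3.19, 3.46 and 2.63 CPM in WT/E3A hearts. The groups did not overlap, and the difference of 0.88 did not pass (edgeR quasi-likelihood adjusted p = 0.127), while DESeq2 called it (adjusted p = 0.0049). Fbn2, a fibrillin of elastic microfibrils, had 8.79, 8.12 and 8.27 CPM in E3A/E3A hearts, against 6.73, 5.82 and 5.22 CPM in WT/E3A hearts. Its difference of 0.51 did not pass (edgeR quasi-likelihood adjusted p = 0.257).

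**Figure D1:**
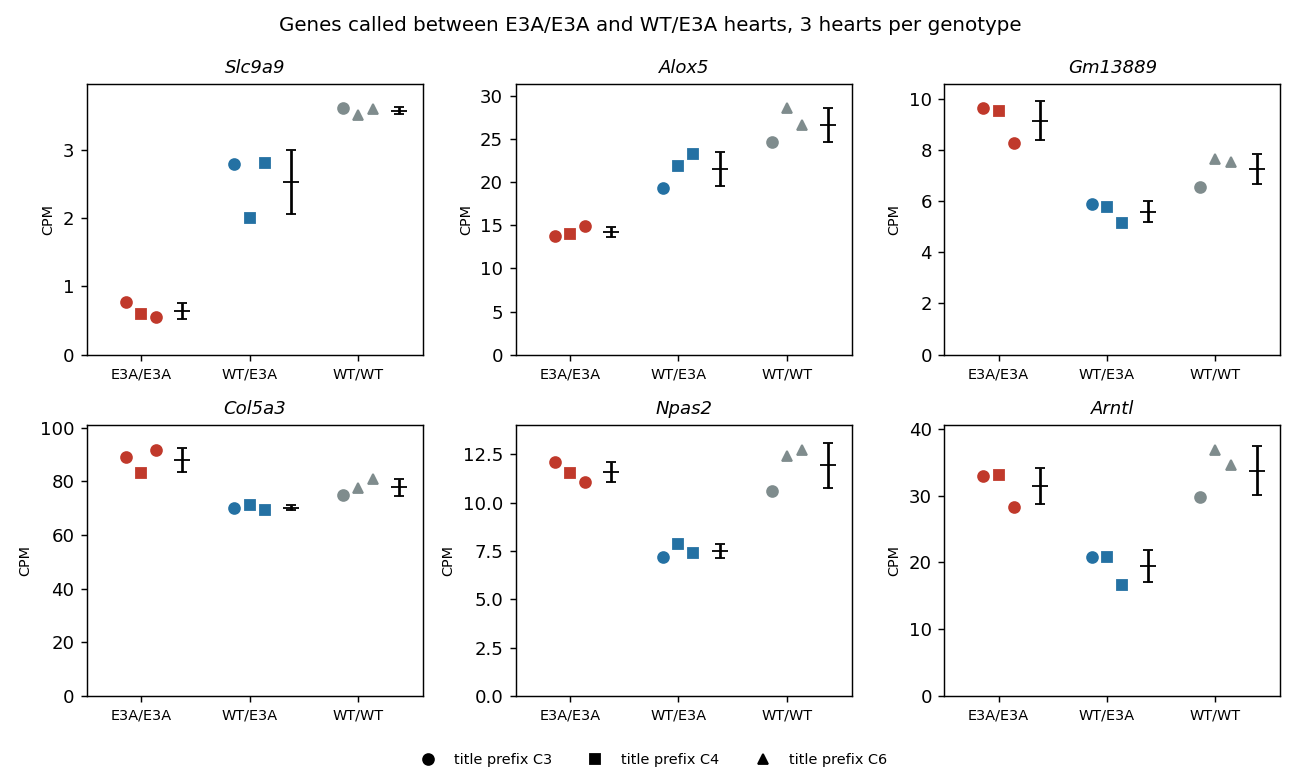
CPM of the 6 genes that passed, 1 point per heart, with mean and SD (n = 3) beside each genotype, and the marker shape giving the title prefix. For Slc9a9 and Alox5 the E3A/E3A hearts are lowest and the WT/WT hearts highest; for Npas2 and Arntl the WT/E3A hearts are lowest and the other genotypes overlap.

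In the 9 libraries the core clock activators that passed set the heterozygotes apart from both other genotypes. Npas2, a partner of BMAL1 in the activating complex (chromosome 1, 39193702 to 39363240), had 12.1, 11.6 and 11.1 CPM in E3A/E3A hearts, against 7.18, 7.87 and 7.42 CPM in WT/E3A hearts. The gene rose, with a log2 difference of 0.63 (SE 0.09) and an adjusted p = 0.0391 in edgeR's quasi-likelihood test. Arntl, which encodes BMAL1 (chromosome 7, 113178471 to 113314126), had 33.0, 33.1 and 28.4 CPM in E3A/E3A hearts, against 20.8, 20.8 and 16.7 CPM in WT/E3A hearts. It rose by 0.70 (SE 0.10, adjusted p = 0.0434 in edgeR's quasi-likelihood test). Both differences were present within each prefix, at 0.69 and 0.59 for Npas2 and 0.56 and 0.82 for Arntl in C3 and C4. With the title prefix as a block neither gene passed (edgeR quasi-likelihood adjusted p = 0.0783 each). WT/WT hearts had 10.6, 12.4 and 12.8 CPM of Npas2 and 29.8, 36.9 and 34.6 CPM of Arntl, which overlaps the homozygotes and not the heterozygotes. In the fit without the block WT/E3A against WT/WT was called for both genes, with -0.67 for Npas2 and -0.79 for Arntl (edgeR quasi-likelihood adjusted p = 0.0258 each). E3A/E3A against WT/WT gave -0.04 and -0.09 (adjusted p = 0.976 and 0.908 in edgeR's quasi-likelihood test). These contrasts share hearts with each other. WT/WT replicates 3 and 4 were in C6, which held no other genotype, and WT/E3A replicates 3 and 4 in C4, which held no WT/WT heart. Prefix and genotype therefore cannot be fully separated in the contrasts against WT/WT. The labels give no time of day at collection, so its part in the values of the clock genes was not tested.

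Of the 7 tested activators, 5 were higher and 2 lower in E3A/E3A hearts, 2 passed, and 4 of the higher ones did not overlap between groups, beside 5.82% of all genes. DESeq2 called 4 of the activators, all higher, beside 15 called higher among all 14373 genes.

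The repressors ran the other way, although 0 of 12 passed: 10 were lower and 2 higher, and the median was -0.38, with -0.24 within C3 and -0.33 within C4. DESeq2 called 2 of them lower, Nr1d2 and Per3, beside 23 called lower among all 14373 genes. Nr1d2 was also called by edgeR's quasi-likelihood test with the 6 libraries alone, and Ciart without E3A/E3A replicate 5. Nr1d2, which encodes REV-ERB beta, a repressor of Arntl, had 111.1, 104.5 and 115.6 CPM in E3A/E3A hearts, against 137.5, 156.5 and 159.2 CPM in WT/E3A hearts. The groups were apart, and the difference of -0.45 had an adjusted p = 0.127 in edgeR's quasi-likelihood test. Nr1d1, its paralog REV-ERB alpha, had 136.9, 117.5 and 109.0 CPM in E3A/E3A hearts, against 171.4, 139.6 and 157.0 CPM in WT/E3A hearts, a difference of -0.36. Nr1d1 overlaps the annotated gene Thra, so its reads are uncertain without a strand setting. Per3 (29.3, 27.5 and 23.0 CPM in E3A/E3A hearts, against 40.5, 36.4 and 45.4 CPM in WT/E3A hearts) differed by -0.61, with Uts2 annotated over the same stretch. Ciart, a repressor of the BMAL1 complex, had 2.38, 2.82 and 4.24 CPM in E3A/E3A hearts, against 5.18, 4.41 and 6.72 CPM in WT/E3A hearts. Its highest homozygote stayed just under its lowest heterozygote, and the difference was -0.81. Per2 varied more than these: 5.47, 7.44 and 21.1 CPM in E3A/E3A hearts, against 14.003, 22.0 and 37.6 CPM in WT/E3A hearts. E3A/E3A replicate 5 lay within the range of the heterozygotes.

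Among output genes, which the clock drives directly, 9 of 12 were lower, 0 passed, and the median was -0.14, with 0.01 within C3 and -0.28 within C4. Dbp, Tef and Hlf, related transcription factors that carry clock timing to other genes, were all lower. Dbp had 23.3, 17.9 and 13.2 CPM in E3A/E3A hearts, against 40.7, 28.9 and 40.3 CPM in WT/E3A hearts, a difference of -0.99, and it overlaps the annotated gene Sphk2. Tef was almost level across homozygotes at 118.9, 119.1 and 118.2 CPM, against 145.9, 136.9 and 171.8 CPM in WT/E3A hearts, a difference of -0.35. Hlf had 32.1, 30.4 and 30.5 CPM in E3A/E3A hearts, against 37.3, 36.1 and 42.3 CPM in WT/E3A hearts, a difference of -0.31. For all 3 genes the groups did not overlap. Their adjusted p-values were 0.629, 0.226 and 0.257 in edgeR's quasi-likelihood test and 0.0251, 0.0049 and 0.0466 in DESeq2, which thus called all 3. WT/WT hearts had 20.1, 18.5 and 14.2 CPM of Dbp, 114.7, 109.8 and 103.9 CPM of Tef and 27.0, 25.6 and 24.5 CPM of Hlf, all below the heterozygotes. Leo1, listed as a clock output, was higher in the homozygotes, at 25.5, 29.2 and 28.1 CPM against 22.9, 22.8 and 23.1 CPM in WT/E3A hearts (0.27, edgeR quasi-likelihood adjusted p = 0.386).

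**Figure D2:**
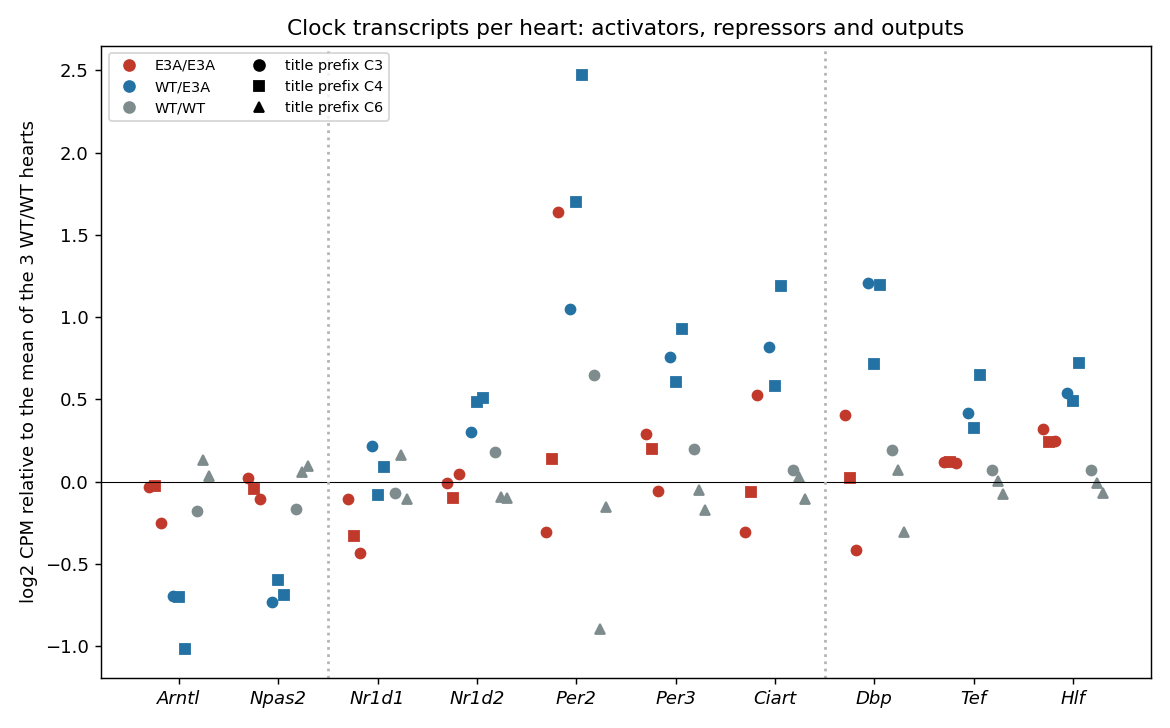
Log2 CPM of 10 clock genes in each heart, relative to the mean of the 3 WT/WT hearts, with activators on the left, repressors in the middle and output genes on the right. WT/E3A hearts lie below the other hearts for Arntl and Npas2 and above the WT/WT hearts for Nr1d2, Per3, Ciart, Dbp, Tef and Hlf.

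The promoters of an activator, a repressor and an output gene are shown as examples, chosen for holding a motif through which the clock's loops act. These motifs are the E-box bound by BMAL1 complexes and the element bound by REV-ERB receptors. Arntl, higher in E3A/E3A hearts, passed, and Ciart and Tef, lower there, did not pass. Sequences are from RefSeq, build GRCm38.p6, 250 bases before to 50 bases after an annotated start, 5′ to 3′ on the gene's own strand. Capitals mark CACGTG (E-box) or TAGGTCA (REV-ERB element), each searched on both strands, and no matches overlap in these windows. The windows are chr7:113207261-113207560, plus strand, for Arntl; chr3:95882179-95882478, minus strand, for Ciart; and chr15:81802423-81802722, plus strand, for Tef. The table holds 2 starts each for Arntl and Tef, and the window shown is the first of them to hold the motif. For Arntl it lies inside the gene, past the first base given above.
Arntl: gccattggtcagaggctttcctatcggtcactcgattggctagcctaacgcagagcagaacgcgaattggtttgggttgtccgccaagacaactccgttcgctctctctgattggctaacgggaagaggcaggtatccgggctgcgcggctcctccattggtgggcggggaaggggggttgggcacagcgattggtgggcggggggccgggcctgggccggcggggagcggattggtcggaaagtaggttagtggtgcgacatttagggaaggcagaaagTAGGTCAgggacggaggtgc
Ciart: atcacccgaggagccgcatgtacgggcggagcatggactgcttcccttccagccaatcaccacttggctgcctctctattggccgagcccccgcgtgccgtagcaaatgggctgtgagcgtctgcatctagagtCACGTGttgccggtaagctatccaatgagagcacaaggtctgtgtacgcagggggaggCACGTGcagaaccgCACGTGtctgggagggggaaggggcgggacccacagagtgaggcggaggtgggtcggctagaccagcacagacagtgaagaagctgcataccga
Tef: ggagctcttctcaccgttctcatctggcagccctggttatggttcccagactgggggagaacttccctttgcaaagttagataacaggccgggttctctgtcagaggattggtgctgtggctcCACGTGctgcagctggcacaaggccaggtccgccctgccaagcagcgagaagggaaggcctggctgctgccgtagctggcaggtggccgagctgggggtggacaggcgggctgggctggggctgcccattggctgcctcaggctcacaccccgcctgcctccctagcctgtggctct
The Arntl window has 1 TAGGTCA, beginning 30 bases after the start. The Ciart window has 3 CACGTG, beginning 116, 58 and 44 bases before the start, and the Tef window has 1, beginning 127 bases before it. Over all 32851 promoters in the table, 7.15% held CACGTG and 2.61% held TAGGTCA. Of the 32 clock genes listed, 26 had a promoter entry, and 7 of these held CACGTG and 3 held TAGGTCA, counted per gene over all its starts. A gene with several starts has more chances of a match, so these counts cannot be compared with the shares of single promoters. CACGTG was in Bhlhe41, Ciart, Coq10b, Cry1, Per1, Tef and Tspan4, and TAGGTCA in Arntl, Leo1 and Nfil3. Npas2, Nr1d1, Nr1d2, Per2, Per3, Dbp and Hlf were not among them. Cry1 was higher in E3A/E3A hearts, at 0.20, against most of the repressors. A match describes letters in a window and is no measure of binding.

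Immediate early genes, which are induced quickly by many signals, were mostly higher in the homozygotes: 23 of 27 tested were higher, 10 of them without overlap beside 5.82% of all genes, and 0 passed. DESeq2, and edgeR's quasi-likelihood test with the 6 libraries alone, each called Nr4a2 higher and Ier3 lower. The median was 0.37, with 0.51 within C3 and 0.32 within C4. Nr4a2, which encodes the orphan nuclear receptor NURR1, had 10.7, 12.7 and 9.77 CPM in E3A/E3A hearts, against 2.34, 4.26 and 2.89 CPM in WT/E3A hearts, and 3.51, 6.80 and 4.44 CPM in WT/WT hearts. Every homozygote was above every other heart. The difference was 1.77 (SE 0.27), and it did not pass (edgeR quasi-likelihood adjusted p = 0.163). With the title prefix as a block it was 1.93 and passed, at an adjusted p = 0.0136 in edgeR's quasi-likelihood test. Its paralog Nr4a1 had 205.9, 267.4 and 286.4 CPM in E3A/E3A hearts, against 122.0, 223.4 and 190.9 CPM in WT/E3A hearts, with overlap. Jund, a constitutive AP-1 subunit, had 150.6, 168.6 and 158.3 CPM in E3A/E3A hearts, against 140.2, 138.2 and 138.3 CPM in WT/E3A hearts, a difference of 0.20 (edgeR quasi-likelihood adjusted p = 0.456). Atf3, a stress-induced transcription factor, had 16.2, 27.2 and 27.5 CPM in E3A/E3A hearts, against 9.32, 19.1 and 16.1 CPM in WT/E3A hearts, with overlap. Ier3 ran against the list, at 14.7, 15.5 and 14.9 CPM in E3A/E3A hearts, against 21.0, 21.4 and 25.5 CPM in WT/E3A hearts.

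Genes of mitochondrial fatty acid oxidation, downstream of CPT1B, were mostly lower in the homozygotes by small steps, and none passed in edgeR's quasi-likelihood test. DESeq2 called 3 of them lower, namely Hadha, Decr1 and Etfdh (adjusted p = 0.0365, 0.00683 and 0.0366), beside 23 called lower among all 14373 genes. In the carnitine shuttle 6 of 8 genes were lower, with a median of -0.13 (-0.11 within C3, -0.07 within C4). Cpt2, which returns the acyl group to CoA inside the mitochondrion, had 264.8, 274.1 and 252.3 CPM in E3A/E3A hearts, against 278.4, 297.8 and 304.2 CPM in WT/E3A hearts. The groups came close but did not overlap, and the difference was -0.15 (SE 0.05). Slc25a20, the carnitine-acylcarnitine carrier, had 170.4, 183.9 and 166.3 CPM in E3A/E3A hearts, against 182.3, 198.2 and 212.5 CPM in WT/E3A hearts, with overlap. Cpt1a, the liver form of the enzyme, had 79.1, 79.0 and 83.4 CPM in E3A/E3A hearts, against 87.7, 95.2 and 83.7 CPM in WT/E3A hearts. It and Cpt1b thus pointed in opposite directions, at -0.14 and 0.27, and neither passed.

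In the beta-oxidation spiral 13 of 15 genes were lower, 8 of them without overlap, beside 5.29% of all genes. An unadjusted p under 0.05 in that direction was found for 8, beside 2.87% of all genes. The median was -0.11, with -0.08 within C3 and -0.12 within C4. The trifunctional protein subunits Hadha and Hadhb, which carry out the later steps on long chains, had 1773, 1790 and 1720 CPM and 997.1, 979.7 and 978.4 CPM in E3A/E3A hearts, against 1942, 1966 and 2046 CPM and 1047, 1181 and 1099 CPM in WT/E3A hearts. The differences were -0.17 for each (SE 0.05, edgeR quasi-likelihood adjusted p = 0.456 and 0.539). Acaa2, the thiolase of shorter chains, had 831.6, 838.6 and 774.3 CPM in E3A/E3A hearts, against 897.8, 899.8 and 981.4 CPM in WT/E3A hearts. For these 3 genes every homozygous heart sat below every heterozygous one in the 9 libraries, and the groups overlapped with the potential outliers. All 7 genes for unsaturated fatty acids and electron transfer flavoprotein were lower, 4 without overlap, with a median of -0.12. Decr1, the mitochondrial dienoyl-CoA reductase needed for polyunsaturated fatty acids, had the lowest p of them. It had 368.1, 370.8 and 350.5 CPM in E3A/E3A hearts, against 398.4, 455.4 and 440.1 CPM in WT/E3A hearts, and 491.5, 511.7 and 496.5 CPM in WT/WT hearts. The 3 genotypes were separate and in order of the number of mutant copies, and the difference was -0.25 (SE 0.05, edgeR quasi-likelihood adjusted p = 0.257). Ech1, which moves double bonds, had 1183, 1190 and 1095 CPM in E3A/E3A hearts, against 1229, 1313 and 1427 CPM in WT/E3A hearts. Etfdh, which passes the electrons to ubiquinone, had 687.2, 691.5 and 664.2 CPM in E3A/E3A hearts, against 733.7, 780.7 and 774.1 CPM in WT/E3A hearts, and overlaps the annotated gene Ppid.

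**Figure D3:**
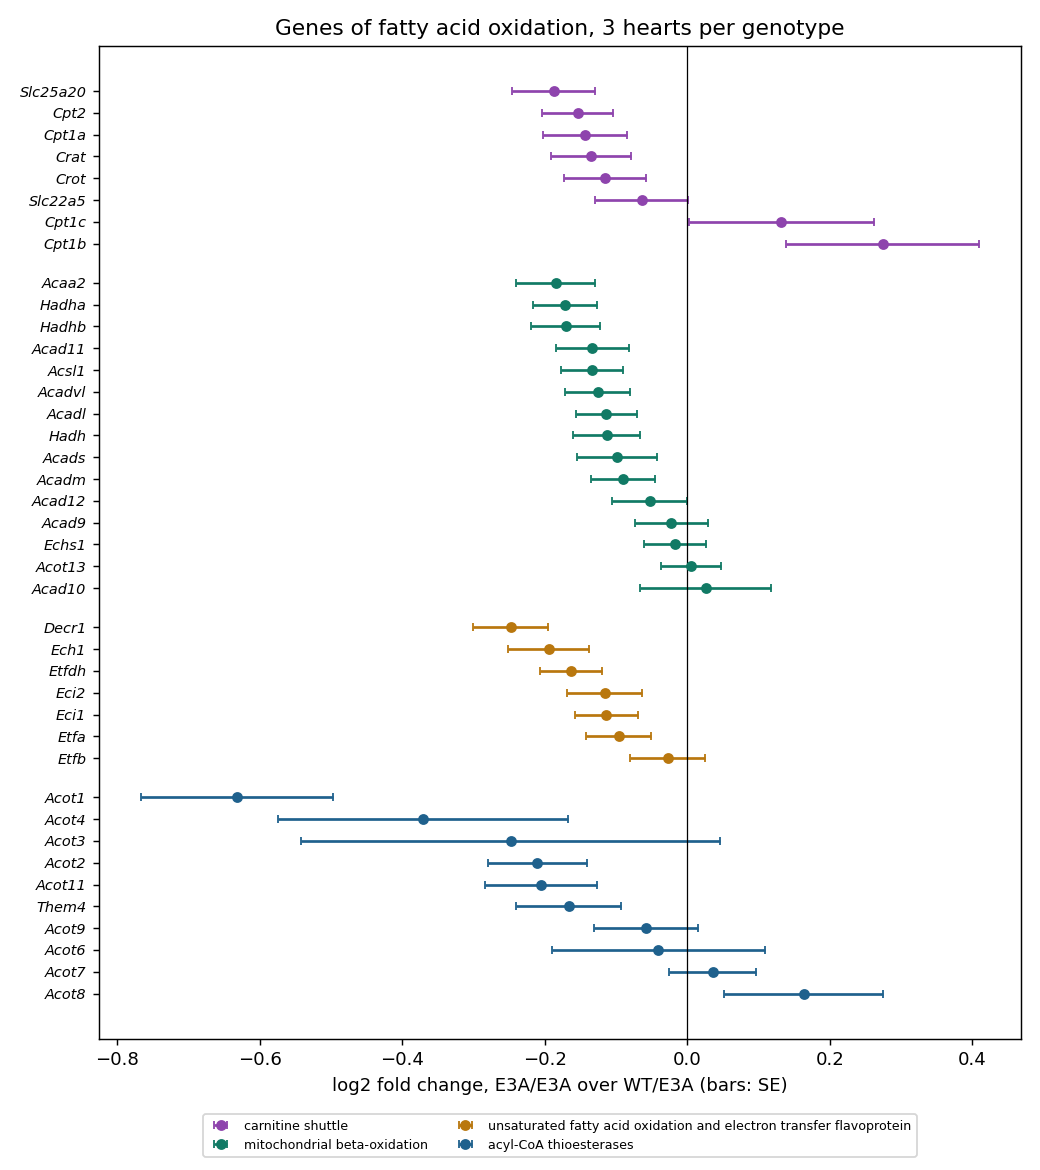
Log2 fold change of E3A/E3A over WT/E3A hearts with its standard error for the tested genes of 4 lists around mitochondrial fatty acid oxidation (3 hearts per genotype). Most points lie between 0 and -0.25; Acot1 is lowest at -0.63 and Cpt1b highest at 0.27.

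The tricarboxylic acid cycle and oxidative phosphorylation had smaller medians. All 23 tested genes of the tricarboxylic acid cycle were lower, but the median was -0.04, 4 did not overlap beside 5.29% of all genes, and 0 passed. With the potential outliers 14 were lower and 9 higher, with a median of -0.01. The 43 nuclear genes of oxidative phosphorylation split 19 higher and 24 lower with a median of 0.00, and with the potential outliers 35 were higher and 8 lower, with a median of 0.06. Peroxisomal oxidation had 18 of 22 genes lower (median -0.06), and DESeq2 called Cat among those lower. Catalase (Cat), which removes peroxisomal hydrogen peroxide, had 200.3, 210.7 and 204.7 CPM in E3A/E3A hearts, against 233.7, 236.9 and 234.6 CPM in WT/E3A hearts. Each group was tight and they were well apart, yet the difference of -0.20 (SE 0.04) had an adjusted p = 0.257 in edgeR's quasi-likelihood test. Of 10 tested acyl-CoA thioesterases, which release fatty acids from CoA, 8 were lower (median -0.19, with -0.07 within C3 and -0.20 within C4). Acot1 had 6.68, 7.41 and 7.67 CPM in E3A/E3A hearts, against 8.37, 13.3 and 11.6 CPM in WT/E3A hearts, a difference of -0.63 (edgeR quasi-likelihood adjusted p = 0.257). Acot1 and Acot2 are near-identical paralogs whose reads the counting could split, so the value of each is uncertain. DESeq2 called Acot1 (adjusted p = 0.0113). Acot2 had 64.2, 66.5 and 72.3 CPM in E3A/E3A hearts, against 71.1, 86.0 and 77.2 CPM in WT/E3A hearts, with overlap. Genes that make and remove malonyl-CoA, with AMPK, split 7 higher and 7 lower (median 0.00). Acacb, the mitochondrial acetyl-CoA carboxylase, had 586.6, 664.5 and 694.8 CPM in E3A/E3A hearts, against 702.5, 671.7 and 722.6 CPM in WT/E3A hearts, and Mlycd, malonyl-CoA decarboxylase, had 146.3, 147.8 and 148.3 CPM in E3A/E3A hearts, against 153.1, 152.2 and 153.7 CPM in WT/E3A hearts. Acaca, the cytosolic carboxylase, had 13.7, 16.5 and 15.3 CPM in E3A/E3A hearts, against 13.8, 13.0 and 11.3 CPM in WT/E3A hearts.

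PPAR alpha targets were lower in 18 of 21 cases, with a median of -0.11 in the pooled comparison, -0.02 within C3 and -0.17 within C4, and 0 passed. E3A/E3A replicate 5 stood apart in several of them. Pdk4, the kinase that restrains pyruvate dehydrogenase, had 261.6, 281.2 and 1220 CPM in E3A/E3A hearts, against 278.6, 896.4 and 685.4 CPM in WT/E3A hearts. E3A/E3A replicate 5 was the highest of all 9 hearts. The difference was -0.08 with all 3 homozygotes, and -1.19 without that heart. Ucp3, the mitochondrial uncoupling protein of muscle, had 37.3, 34.7 and 73.1 CPM in E3A/E3A hearts, against 45.2, 94.5 and 68.9 CPM in WT/E3A hearts, and Angptl4, an inhibitor of lipoprotein lipase, 6.94, 5.74 and 11.7 CPM in E3A/E3A hearts, against 6.73, 16.4 and 11.4 CPM in WT/E3A hearts. The coactivator Ppargc1a followed the same hearts, with 158.4, 159.9 and 403.1 CPM in E3A/E3A hearts, against 161.0, 209.9 and 279.7 CPM in WT/E3A hearts. A list of 19 glucocorticoid responsive genes, Pdk4 and Angptl4 among them, varied with the same hearts: its median was -0.02 when pooled, 0.41 within C3, which holds that heart, and -0.55 within C4, and its summed level ran from 1193 to 2883 CPM in E3A/E3A hearts and 1419 to 2181 CPM in WT/E3A hearts. Without Pdk4 and Angptl4, a choice made after their values were seen, the other 17 genes summed to 924.1, 1075 and 1652 CPM in E3A/E3A hearts, against 1134, 1269 and 1430 CPM in WT/E3A hearts. E3A/E3A replicate 5 was again the highest of these, and the median was 0.05, with 0.22 within C3 and -0.51 within C4. Its part in the differences of the other genes was not tested. Ppara, the receptor itself, had 117.6, 167.3 and 210.2 CPM in E3A/E3A hearts, against 173.6, 192.9 and 227.5 CPM in WT/E3A hearts, with overlap.

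Lipid storage, lipid synthesis and glucose genes differed in places. Gpam, the mitochondrial glycerol-3-phosphate acyltransferase that starts triglyceride synthesis, had 190.3, 191.0 and 215.1 CPM in E3A/E3A hearts, against 251.5, 254.9 and 238.0 CPM in WT/E3A hearts. The homozygotes were lower without overlap, by -0.32 (SE 0.06, edgeR quasi-likelihood adjusted p = 0.127), and DESeq2 called it (adjusted p = 0.000672). Of 18 genes of triglyceride synthesis and lipolysis, 15 were lower and the median was -0.09. Sterol and fatty acid synthesis ran the other way: 26 of 29 genes were higher, 6 without overlap beside 5.82% of all genes. Of these genes, 10 had an unadjusted p under 0.05 in that direction, beside 4.04% of all genes. The median was 0.13, with 0.13 within C3 and 0.16 within C4. Against WT/WT hearts the list median was 0.003 for E3A/E3A and -0.11 for WT/E3A hearts. The summed level was 674 to 746 CPM in E3A/E3A, 655 to 680 CPM in WT/E3A and 699 to 748 CPM in WT/WT hearts. By these medians the homozygotes were level with WT/WT hearts and the heterozygotes lay below them. Scd1, the stearoyl-CoA desaturase, had 26.2, 26.9 and 27.5 CPM in E3A/E3A hearts, against 22.2, 23.4 and 20.8 CPM in WT/E3A hearts, a difference of 0.28 (edgeR quasi-likelihood adjusted p = 0.338). Srebf2, the main transcription factor of sterol synthesis, had 52.2, 51.1 and 50.1 CPM in E3A/E3A hearts, against 46.6, 43.2 and 48.1 CPM in WT/E3A hearts. Me1, malic enzyme, was an exception, at 95.7, 100.5 and 96.9 CPM in E3A/E3A hearts, against 102.7, 116.6 and 115.5 CPM in WT/E3A hearts. White adipocyte markers split 5 higher and 3 lower, with a median of 0.29 (0.77 within C3, 0.23 within C4). The part of adipocytes in the lipid synthesis values was not tested. The 30 tested genes of glucose uptake, glycolysis and glycogen had a median of 0.00. Fbp2, the muscle fructose bisphosphatase, lay outside that range of small values: 16.7, 15.9 and 13.0 CPM in E3A/E3A hearts, against 20.7, 23.9 and 23.4 CPM in WT/E3A hearts, and 27.8, 34.9 and 30.9 CPM in WT/WT hearts. The genotypes were separate and in order of the number of mutant copies, and the difference of -0.57 (SE 0.10) did not pass (edgeR quasi-likelihood adjusted p = 0.128), while DESeq2 called it (adjusted p = 0.000528).

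Contractile and stress genes gave no gene that passed in edgeR's quasi-likelihood test, while DESeq2 called Rcan1 higher and Scn4b lower (adjusted p = 0.00315 and 0.0204). Myh6 differed by -0.06, Myh7 by 0.08, and the 13 cardiomyocyte markers had a median of 0.02. Scn4b, a sodium channel subunit of cardiomyocytes, had 35.3, 39.2 and 27.0 CPM in E3A/E3A hearts, against 44.6, 47.2 and 46.3 CPM in WT/E3A hearts, and 66.7, 59.0 and 68.2 CPM in WT/WT hearts. The 3 genotypes did not overlap, and the difference was -0.44 (SE 0.12, edgeR quasi-likelihood adjusted p = 0.562). Rcan1, a calcineurin inhibitor and target, had 117.2, 118.7 and 132.8 CPM in E3A/E3A hearts, against 95.3, 98.5 and 104.5 CPM in WT/E3A hearts (0.30, edgeR quasi-likelihood adjusted p = 0.127), while WT/WT hearts resembled the homozygotes at 124.4, 121.4 and 118.7 CPM. Nppa and Nppb, the natriuretic peptides, had 212.1, 175.0 and 295.2 CPM and 156.8, 146.6 and 110.9 CPM in E3A/E3A hearts, against 139.4, 178.6 and 121.3 CPM and 135.7, 85.5 and 72.5 CPM in WT/E3A hearts, both with overlap. Nppa is also an atrial marker. Of 12 atrial markers 10 were higher, the median was 0.48 but 1.17 within C3 and -0.43 within C4, and the summed level ran from 368 to 665 CPM in E3A/E3A hearts and 292 to 482 CPM in WT/E3A hearts. With single hearts left out the atrial median ran from 0.056 to 0.92, and with 13 libraries it was 0.12. Bmp10, the most atrial of these markers, was at 0 reads in E3A/E3A replicate 4 and in WT/E3A replicates 2 and 4. The share of atrial tissue in the Nppa values was not tested.

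Smaller shifts ran through the interferon, endothelial and chaperone lists, with 0 genes passing in each in edgeR's quasi-likelihood test. DESeq2 called 1 endothelial marker, Cldn5, and outside the lists Heyl and Tspan18, all higher (adjusted p = 0.0351, 0.0204 and 0.00628). Of 25 interferon response genes 24 were higher, 3 without overlap beside 5.82% of all genes, with a median of 0.19 (0.14 within C3, 0.05 within C4). Ifi27l2a had 7.92, 6.57 and 7.93 CPM in E3A/E3A hearts, against 6.03, 5.64 and 6.08 CPM in WT/E3A hearts, and Isg15, a ubiquitin-like antiviral protein, 3.35, 3.19 and 3.04 CPM in E3A/E3A hearts, against 2.74, 2.51 and 2.28 CPM in WT/E3A hearts. The groups did not overlap for either gene, and the differences were 0.34 and 0.35. Of 14 endothelial markers 13 were higher, with a median of 0.10 and a summed level of 1906 to 2118 CPM in E3A/E3A hearts and 1762 to 1927 CPM in WT/E3A hearts. Cldn5, a tight junction protein, had 46.1, 52.1 and 35.4 CPM in E3A/E3A hearts, against 33.5, 32.7 and 26.5 CPM in WT/E3A hearts. Heyl, a Notch-responsive repressor found in vessels, had 57.4, 57.2 and 52.0 CPM in E3A/E3A hearts, against 44.7, 47.4 and 44.9 CPM in WT/E3A hearts (0.28, edgeR quasi-likelihood adjusted p = 0.204). Tspan18, a tetraspanin, had 30.6, 32.4 and 28.1 CPM in E3A/E3A hearts, against 24.6, 23.7 and 22.5 CPM in WT/E3A hearts (0.37, edgeR quasi-likelihood adjusted p = 0.127). The part of the endothelial share in the values of Heyl and Tspan18 was not tested. Ptpn3, a protein tyrosine phosphatase, had 73.9, 71.5 and 72.7 CPM in E3A/E3A hearts, against 83.7, 81.8 and 89.9 CPM in WT/E3A hearts. It was lower without overlap by -0.23 and did not pass (edgeR quasi-likelihood adjusted p = 0.257), while DESeq2 called it (adjusted p = 0.0251). Of 26 heat shock genes 23 were lower, with a median of -0.11, but 0.00 within C3 and -0.16 within C4, and Hspa4 had 210.1, 227.6 and 233.7 CPM in E3A/E3A hearts, against 240.7, 254.2 and 250.9 CPM in WT/E3A hearts.

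**Figure D4:**
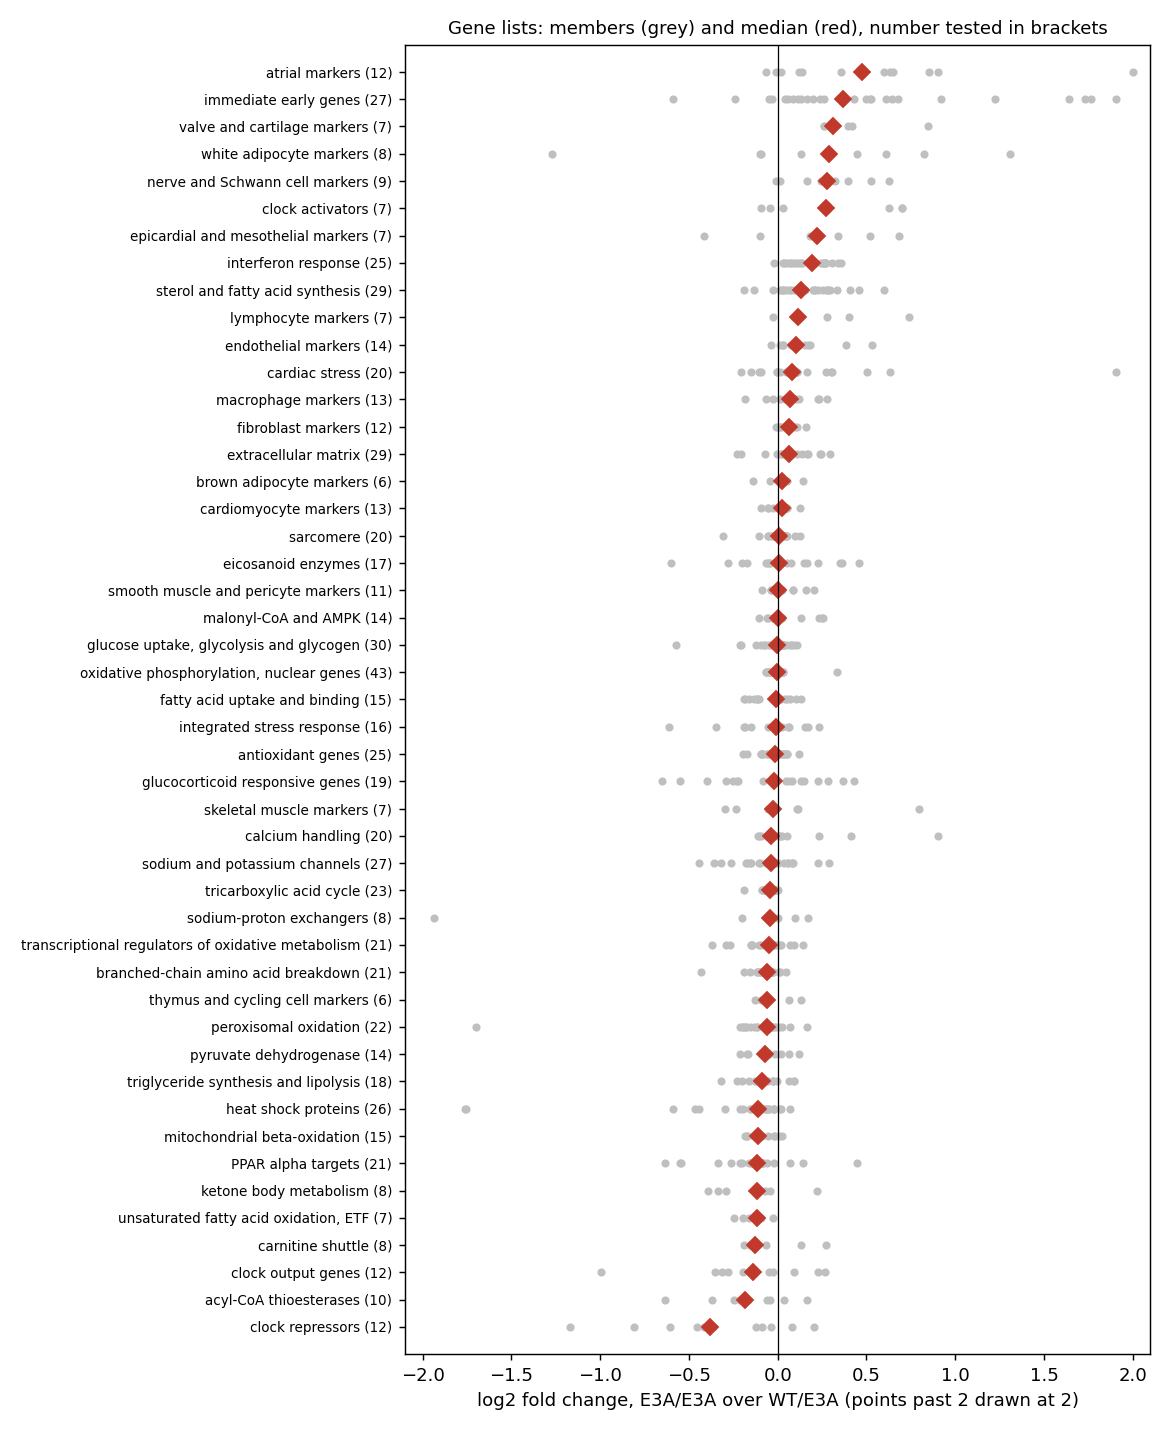
Log2 fold change of E3A/E3A over WT/E3A hearts for the members of each list with at least 5 tested genes (grey) and its median (red diamond), with lists ordered by median. Atrial markers (median 0.48) and immediate early genes (0.37) are at the top, and clock repressors (-0.38) and acyl-CoA thioesterases (-0.19) at the bottom.

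With the potential outliers added back, 5 E3A/E3A hearts were set against 4 WT/E3A hearts, and 0 of 14387 genes passed in edgeR's quasi-likelihood test. At an unadjusted p under 0.05 there were 208 genes (1.45%), DESeq2 called 4, and limma-voom with quality weights 5. The groups did not overlap for 0.507% of genes in the higher and 0.487% in the lower direction, and 45% of genes had a log2 difference above 0. The biological coefficient of variation, the spread between hearts of a genotype, was 28.9% with 13 libraries and 7.85% with 9. CPM in the rest of this paragraph are scaled over 13 libraries. Slc9a9 did not keep its separation, by the values given for it above. Alox5 stayed apart, at 16.4, 12.04, 13.0, 13.3 and 14.03 CPM in E3A/E3A hearts, against 20.3, 18.3, 20.5 and 22.0 CPM in WT/E3A hearts, a difference of -0.56. Arntl also stayed apart, with 24.7 to 31.2 CPM in E3A/E3A hearts and 15.7 to 19.7 CPM in WT/E3A hearts (0.60). The groups of Npas2 overlapped (0.58), those of Gm13889 too (0.16), and Col5a3 turned to -0.16, with 325 CPM in WT/E3A replicate 1. WT/WT replicate 1 had 5.68 CPM of Npas2, within the 3.82 to 7.41 CPM of the heterozygotes. For Npas2 the separation of WT/E3A from WT/WT hearts was thus lost. For Arntl WT/WT replicate 1 had 20.6 CPM, just above the heterozygotes. WT/E3A against WT/WT passed for neither gene with 13 libraries. Nr4a2 had the lowest p of the named genes, at 16.1, 5.84, 10.1, 11.96 and 9.20 CPM in E3A/E3A hearts, against 1.79, 2.21, 4.01 and 2.73 CPM in WT/E3A hearts (1.98, SE 0.32, edgeR quasi-likelihood adjusted p = 0.693). Gpam stayed apart too, at 179.6 to 202.4 CPM in E3A/E3A hearts and 224.6 to 285.3 CPM in WT/E3A hearts (-0.42). Of the lists, beta-oxidation kept 13 of 15 genes lower (median -0.09) and the clock repressors had 11 of 12 lower (median -0.36). Single genes of fatty acid oxidation lost their separation: the groups of Hadha, Hadhb, Acaa2, Cpt2, Decr1, Ech1 and Etfdh overlapped, and those of Cat too. Interferon response kept 24 of 25 higher (0.16). Other lists held less well: the clock activators split 4 higher and 3 lower (0.17), and sterol and fatty acid synthesis 21 higher and 8 lower (0.09). Fibroblast markers split 6 higher and 6 lower, and macrophage markers 7 higher and 6 lower.

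**Figure D5:**
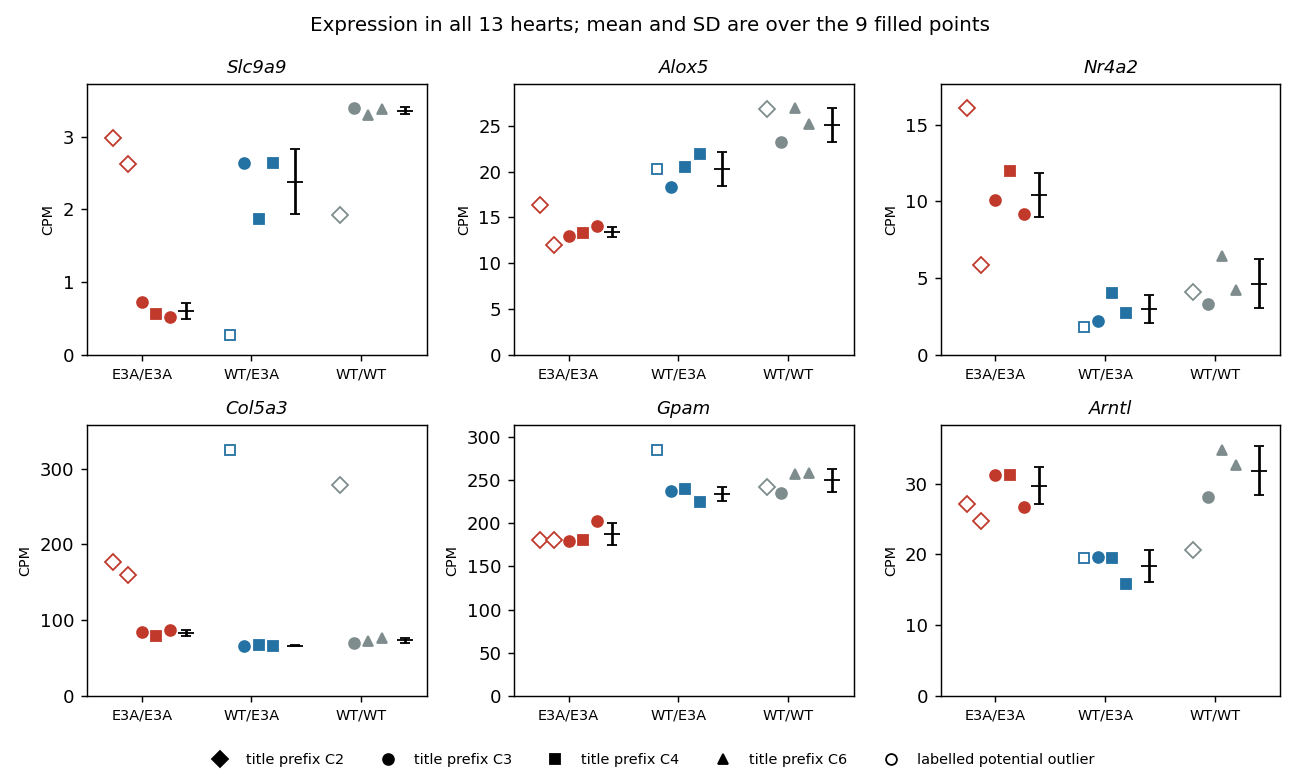
CPM of 6 genes in all 13 hearts, scaled over 13 libraries, with open markers for the libraries labelled potential outliers and mean and SD over the filled points (n = 3 per genotype). Alox5, Nr4a2, Gpam and Arntl keep E3A/E3A and WT/E3A hearts apart with the open points included, and Slc9a9 and Col5a3 do not.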

How the data were processed

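PolyA RNA of 13 mouse hearts was sequenced as single-end reads. The authors deposited whole-number read counts per gene symbol, 24061 symbols in each file. Per the submitters' processing notes, STAR 2.4.0 and featureCounts 1.4.4 were used with build mm10 (GRCm38). No source used here gives the settings for strand and for reads mapping to several places. The main test was edgeR's robust quasi-likelihood F test (edgeR 4.0.16, R 4.3.3) on 9 libraries, 3 per genotype, after TMM scaling and filterByExpr with the genotypes as groups, with p-values adjusted by Benjamini-Hochberg over 14373 genes, with a call at an adjusted p under 0.05. CPM are TMM-scaled. Fold changes are E3A/E3A over WT/E3A. Differences within a prefix are of the log2 of mean CPM, with 0.1 CPM added to each mean. The procedure was tested on simulated counts. Alternatives were other samples, blocks, normalizations, filters, DESeq2 1.42.0, limma 3.58.1 voom and single libraries left out.

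Genes named were those called, the next of lowest p up to 20, a fixed set around fatty acid oxidation, clock and stress, and the 3 of lowest p in each list, 163 in all. The text gives values for 68 of them. The other 95 lay between -0.65 and 1.31 on the log2 scale, and 0 passed (lowest adjusted p = 0.257). Some genes are not reported here. The comparison, gene lists and named genes were chosen with earlier results of these data known. Positions and promoters are from RefSeq (GRCm38.p6). Reads carry no molecular identifiers, so counting error is a lower bound on technical error. The quasi-likelihood p-values set each difference against the spread between hearts of a genotype, estimated over the 9 libraries with information shared across genes.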

Additional observations from a re-analysis of the deposited data

Results flagged for a closer look

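Over all 13 libraries, single hearts were compared with the rest of their genotype for the 68 named genes in E3A/E3A and WT/E3A hearts, 136 groups in all. A heart was flagged where its gap to the nearest other heart filled most of the range of the group, which chance does in about 1 in 20 groups. There were 28 flags, 23 of them in libraries labelled potential outliers. Values are CPM scaled over 13 libraries.

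E3A/E3A replicate 5, which is not labelled a potential outlier, was above the other 4 homozygotes for Pdk4 (1148 CPM, against 246.9 to 355.9), Ppargc1a (379.3, against 89.8 to 163.0), Ucp3 (68.8, against 32.7 to 40.7) and Gpam (202.4, against 179.6 to 180.5). WT/E3A replicate 4 was below the other heterozygotes for Arntl, at 15.7 CPM against 19.5 to 19.7. E3A/E3A replicate 1 stood high for Cldn5 (113.1 CPM) and E3A/E3A replicate 2 low for Gja5, a connexin (11.7 CPM).

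The other 21 flags were all WT/E3A replicate 1. It was above the other heterozygotes for Col5a3 (325.4 CPM, against 65.5 to 67.0), Gm13889 (26.9), Adamts4 (7.78), Rcan1 (183.0), Acacb (1088), Mlycd (301.4), Scn4b (77.0), Jund (377.1), Nppa (539.6), Myh6 (118015), Myh7 (1351), Leo1 (50.5), Srebf2 (70.2), Ifi27l2a (15.8), Cldn5 (84.3), Egfl7 (160.7) and Bmp10 (6.02). It was below them for Cat (129.4 CPM, against 220.8 to 222.9), Hadhb (359.6), Etfdh (430.6) and Hspa4 (168.3).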

How the results depend on the processing

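No paired analysis was possible because replicate numbers come from the order of deposition. Calls numbered 6 in the 9-library fit, 7 with the 6 libraries alone (4 shared with the 6), 6 with RLE factors or a 1 CPM filter, 5 with upper quartile factors, 10 with no filter, 38 with DESeq2, 0 with limma-voom, 0 with 13 libraries, 2 with the prefix block, also with the 6 libraries alone, and 1 to 13 with single hearts left out. With 13 libraries the 0 calls became 1 with the outlier label as a covariate (Npas2), 4 with DESeq2 and 5 with quality weights, and stayed 0 with the prefix block, the 2 genotypes alone and each heart left out. Named genes gave 1292 other values: 1189 kept direction and side of the threshold, 37 passed newly, 58 passed no longer and 8 turned. Most of the 1189 belong to genes that did not pass in the 9-library fit, so the count says little about the calls. Of 19 alternatives, Slc9a9 was called in 17, Alox5 in 10, Npas2 in 8, Gm13889 in 7, Arntl in 7 and Col5a3 in 6.

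With 13 libraries Col5a3 turned to -0.16, Jund to -0.20 and Bmp10 to -0.24. With single hearts left out Pdk4 ran from -1.19 to 0.28, turning to 0.27 without E3A/E3A replicate 3, 0.25 without E3A/E3A replicate 4 and 0.28 without WT/E3A replicate 3. Ppargc1a ran from -0.45 to 0.37, turning to -0.45 without E3A/E3A replicate 5 and -0.03 without WT/E3A replicate 2. Cpt1b stayed at 0.27 with RLE and with 13 libraries (exact p = 0.222) and was 0.22 with 1 CPM added.

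List medians with 13 libraries were -0.066 for unsaturated fatty acid oxidation, -0.27 for thioesterases, -0.062 for malonyl-CoA and AMPK, -0.045 for fatty acid uptake, 0.060 for oxidative phosphorylation, -0.13 for peroxisomal oxidation, 0.023 for antioxidant genes, 0.17 for clock activators, -0.11 for sodium and potassium channels, -0.032 for sarcomere, -0.14 for extracellular matrix, 0.087 for eicosanoid enzymes, 0.061 for smooth muscle (0.063 with the prefix block) and 0.16 for skeletal muscle. With single hearts left out, medians ran from -0.14 to -0.082 for beta-oxidation, -0.17 to -0.094 for unsaturated fatty acid oxidation, -0.21 to -0.11 for thioesterases, -0.067 to -0.0081 for fatty acid uptake, -0.11 to -0.027 for triglyceride synthesis, -0.026 to 0.034 for oxidative phosphorylation, -0.090 to -0.044 for branched-chain amino acids, -0.040 to 0.00055 for antioxidant genes, 0.23 to 0.38 for immediate early genes, -0.49 to 0.17 for glucocorticoid responsive genes, -0.39 to -0.23 for clock repressors, -0.28 to -0.030 for clock outputs, -0.063 to 0.060 for sodium-proton exchangers, -0.060 to 0.049 for smooth muscle, 0.075 to 0.87 for white adipocytes, -0.071 to 0.026 for brown adipocytes and 0.16 to 0.42 for nerve. The cause of these changes was not tested. With 3 hearts per genotype and Slc9a9 at 13 to 65 reads, depth limits low genes most.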

Other observations

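Genes of other fuels and of fatty acid uptake were compared between E3A/E3A and WT/E3A hearts. Of 21 tested genes of branched-chain amino acid breakdown 18 were lower, 5 without overlap beside 5.29% of all genes, with a median of -0.06, and 0 passed. Ketone body metabolism had 7 of 8 genes lower, 3 without overlap, with a median of -0.12 close to that of the carnitine shuttle (-0.13). Pyruvate dehydrogenase had 11 of 14 lower (-0.07), and fatty acid uptake and binding 9 of 15 lower (-0.01). Cd36, the main fatty acid transporter of the heart, had 1941, 1841 and 1966 CPM in E3A/E3A hearts, against 1927, 2277 and 2028 CPM in WT/E3A hearts, with overlap. Fabp3, the fatty acid binding protein of heart muscle, had 1112, 1163 and 1040 CPM in E3A/E3A hearts, against 1175, 1140 and 1274 CPM in WT/E3A hearts, and it overlaps the annotated gene Zcchc17. Plin2, which coats lipid droplets, had 49.3, 52.3 and 52.6 CPM in E3A/E3A hearts, against 56.7, 53.9 and 62.0 CPM in WT/E3A hearts, lower without overlap by -0.16 (edgeR quasi-likelihood adjusted p = 0.694).

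Markers of other cells that a heart sample can hold had 0 genes that passed in edgeR's quasi-likelihood test. Fibroblast markers had a median of 0.07 with 10 of 12 higher and a summed level of 2661 to 2860 CPM in E3A/E3A hearts and 2523 to 2735 CPM in WT/E3A hearts. Macrophage markers had a median of 0.07 with 10 of 13 higher and a summed level of 310.7 to 363.7 CPM in E3A/E3A hearts and 299.4 to 326.5 CPM in WT/E3A hearts. Valve and cartilage markers had all 7 tested genes higher, with a median of 0.31 that was 1.16 within C3 and -0.01 within C4. With single hearts left out that median ran from 0.15 to 0.60. Nerve and Schwann cell markers had 8 of 9 higher (0.28), with 0.31 within C3 and 0.03 within C4. The macrophage median was 0.12 within C3 and -0.02 within C4. Lymphocyte markers had a median of 0.12 with 6 of 7 tested genes higher. Alox5, lower in the homozygotes, is expressed in leukocytes, and the part of leukocyte number in its difference was not tested.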
